A study of Homo sapiens with 6 samples.

Results

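The genes encoded by the mitochondrial genome were followed in SW480 cells, a human colorectal cancer cell line, with and without doxycycline. The genes were chosen by their Ensembl identifiers, by a rule that used no measured value, although earlier results of these data were known. Of the 37 mitochondrial genes, 7 had a value on the arrays used here, out of 26445 probe sets in all. These were both rRNA genes, MT-RNR1 and MT-RNR2, and 5 of the 22 tRNA genes, namely MT-TL1, MT-TG, MT-TH, MT-TL2 and MT-TP. The 13 genes for mitochondrial mRNAs and the other 17 tRNA genes were not analysed here, so the results describe the rRNAs and a minority of the tRNAs.

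All cells carried a vector for the tetracycline repressor and a KIAA1199 construct that doxycycline switches on, and they grew with blasticidin S and G418 in Tet-system-approved serum. By the results of the paper, they were the cells of a single clone, Clone 13. One group received doxycycline at 50 ng/ml for 48 h by the labels, while the methods give a range of doses that starts at this one, and the other group was left uninduced. Total RNA of 3 independent experiments per group was hybridized to 6 Affymetrix GeneChip Human Exon arrays. The paper cites earlier work in which doses of this range left transcript levels on arrays unaffected, and that work was not examined here. No doxycycline-treated cells without the construct were among these arrays, so an effect of doxycycline on mitochondria and an effect of KIAA1199 cannot be told apart.

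The mitochondrial genome is copied into long transcripts of both strands, the heavy and the light. Most of its rRNA and mRNA genes are separated by tRNA genes, and the excision of the tRNAs by RNase P at one end and ELAC2 at the other frees the RNAs between them. The rRNAs and tRNAs serve the mitochondrial ribosome, which makes core subunits of the respiratory chain and of ATP synthase. Doxycycline, a tetracycline, is known to inhibit this ribosome, and doxycycline-induced systems therefore expose mitochondrial translation to the drug as well as switching on the construct.

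In the RefSeq gene table of GRCh38.p14, from which only the order of the genes was used, the 7 genes lie in 4 stretches of the mitochondrial genome. MT-RNR1 and MT-RNR2 are genes 2 and 4 of 37, separated by the valine tRNA gene, and MT-TL1 follows MT-RNR2 directly as gene 5. MT-TG is gene 24, between the genes for cytochrome oxidase subunit COX3 and the complex I subunit ND3. MT-TH is gene 29, after ND4, and MT-TL2 is gene 31, before ND5, with a serine tRNA gene between them. MT-TP is gene 37 and the last. It is the one light-strand gene among them, and the other 6 are encoded on the heavy strand.

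The arrays differed little as a whole. Any 2 of them correlated over all probe sets with an r between 0.984 and 0.989, and each had a median log2 level of 5.66, with levels from 1.48 to 12.60. Because every array had been brought to the same distribution, a value states a gene's level relative to the other genes of its array, and a change shared by most genes would not be seen. The identifiers carry no gene symbols, so neither KIAA1199 nor markers of colorectal cells were looked up. The largest rise of any probe set was at ENSG00000103888_at, from a log2 level of 7.76 on average to 9.60.

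MT-TG, the glycine tRNA gene, was lower with doxycycline in all 3 experiments, at 66.3% of its uninduced level on the linear scale. The other 6 genes stood at 91.0% to 100.0% of their uninduced levels, and none of them passed a test. Whether MT-TG differed from the other genes in its response was not tested, and its 95% interval overlapped that of MT-TP. No member passed an adjusted p of 0.05 (0 of 7), as was the case for all probe sets (0%). One member, MT-TG, had an unadjusted limma p under 0.05, against 12.3% of all probe sets.

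Calls were also made by the limits of the study, which ask for a fold change of 1.2 or more and for a p below 0.025 before adjustment. With limma and the experiment as a block, 1 of the 7 genes passed them, against 5.83% of all probe sets in either direction, and with no replicate block the count was again 1, against 3.97%. This 1 gene was lowered, against 2.94% of all probe sets lowered at these limits, and with 7 genes a single call is not a result about the mitochondrial genes as a group. The median log2 fold change was -0.03 over the rRNAs (n = 2), -0.04 over the tRNAs (n = 5) and 0.00 over all probe sets. Regardless of sign, the median log2 change was 0.03 for the 7 genes and 0.10 for the table as a whole, while it was 0.063 for the 155 probe sets at least as bright as MT-RNR1, a level that 6 of the 7 genes reached.

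**Figure D1:**
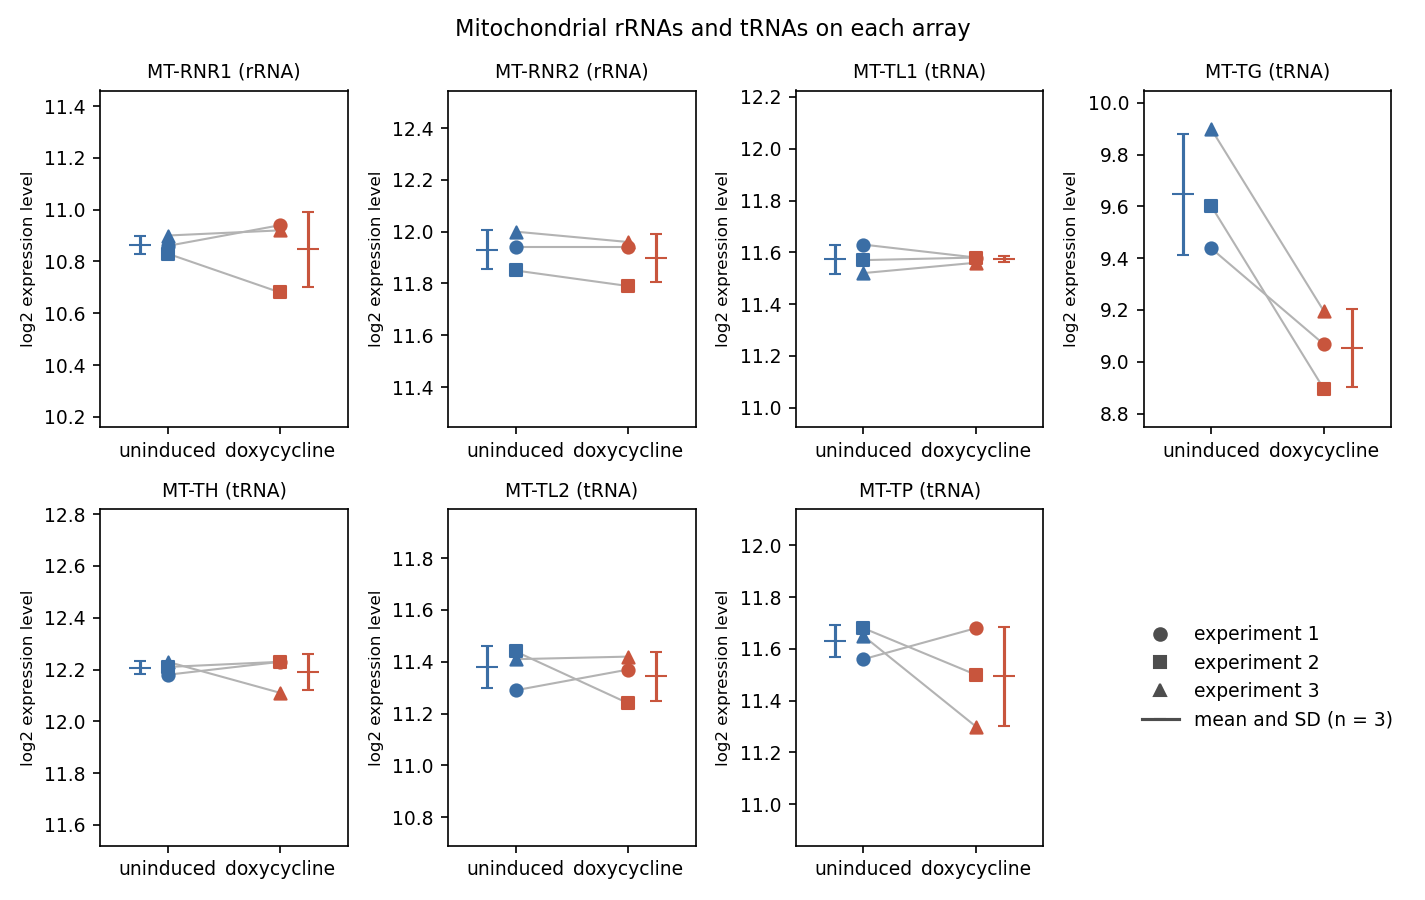
Log2 expression level of the 7 mitochondrial genes on each array, uninduced in blue and doxycycline in red, with lines joining the arrays of an experiment and bars for the mean and SD of 3 arrays. The vertical axes start at different levels but all span the same range, so slopes can be compared. The doxycycline arrays of MT-TG (8.90 to 9.20) all lie below its uninduced arrays (9.44 to 9.90), and in the other 6 panels the groups overlap. Of all probe sets, 16.6% have groups that do not overlap, in either direction.

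MT-RNR1 (ENSG00000211459_at) encodes the rRNA of the small mitochondrial ribosomal subunit, the subunit that tetracyclines bind. Its log2 level was 10.86, 10.83 and 10.90 in uninduced cells and 10.94, 10.68 and 10.92 with doxycycline, in experiments 1, 2 and 3. The doxycycline arrays of experiments 1 and 3 lay above the highest uninduced array, and that of experiment 2 lay below the lowest, so the groups overlapped. The log2 fold change was -0.02, with a 95% interval from -0.23 to 0.20, and an adjusted p of 0.95 (limma). On the linear scale the interval runs from 85.2% to 114.7% of the uninduced level.

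MT-RNR2 (ENSG00000210082_at) encodes the rRNA of the large subunit. It had log2 levels of 11.94, 11.85 and 12.00 without and of 11.94, 11.79 and 11.96 with doxycycline. The experiments stood in the same order in both groups, with experiment 2 the lowest and experiment 3 the highest. The difference was 0.00, -0.06 and -0.04 in the 3 experiments, and the SD of these differences, 0.031, was the smallest among the 7 genes. The log2 fold change was -0.03 (95% interval -0.20 to 0.14, adjusted p = 0.86, limma), or 86.9% to 109.9% of the uninduced level. The RefSeq table also lists 13 nuclear MTRNR2L genes, copies of MT-RNR2 sequence, and whether they share signal with this probe set was not tested.

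MT-TL1 (ENSG00000209082_at) encodes the leucine tRNA that reads UUR codons, and its gene holds the binding site of the termination factor MTERF1. Its log2 levels were 11.63, 11.57 and 11.52 in uninduced cells and 11.58, 11.58 and 11.56 with doxycycline. Both groups had a mean of 11.57, with an SD of 0.055 without and 0.012 with the drug (n = 3 each). The log2 fold change was therefore 0.00, with a 95% interval from -0.17 to 0.17. For this gene, which adjoins MT-RNR2, a change in either direction beyond 88.6% or 112.8% of the uninduced level lay outside the interval.

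MT-TG (ENSG00000210164_at) encodes the tRNA for glycine. Its log2 levels were 9.44, 9.60 and 9.90 in the uninduced arrays and 9.07, 8.90 and 9.20 in the doxycycline arrays. Every doxycycline array was below every uninduced array, as in 7.93% of all probe sets. In either direction, the groups did not overlap in 16.6% of all probe sets. The mean was 9.65 ± 0.23 (SD, n = 3) without and 9.05 ± 0.15 (SD, n = 3) with doxycycline. The exact permutation test over the arrays, which ignores the experiments, gave a two-sided p of 0.1, the smallest that 3 arrays against 3 allow. Over the 3 differences within experiments, the exact sign-flip test gave a two-sided p of 0.25, the smallest that 3 pairs allow.

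Within the experiments MT-TG differed by -0.37, -0.71 and -0.70 on the log2 scale, so that experiment 1 gave the smallest difference. Of all probe sets, 17.6% were lower with doxycycline in all 3 experiments. The log2 fold change was -0.59 (standard error 0.099, 95% interval -0.87 to -0.32), which places the level between 54.8% and 80.2% of that in uninduced cells. The limma p was 0.0039 before adjustment and 0.35 after it, and 1053 probe sets shared this adjusted p, the lowest of the table. A larger fall was estimated for 243 probe sets, and its unadjusted p was number 267 from the smallest.

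The call of MT-TG was lost under 2 of its 16 alternatives. The paired test named in the methods gave an unadjusted p of 0.034 for it, above the 0.025 limit, and so called none (0) of the 7 genes, against 2.18% of all probe sets. Without experiment 3 the limma p was 0.027 at a log2 fold change of -0.54, which also left the gene uncalled. Without experiment 2 the estimate was also -0.54, and the limma p of 0.023 lay just inside the limit. Without the block, leaving out either single array of experiment 3 kept the call, with a limma p of 0.011 and 0.0080. Its estimate lay between -0.70 and -0.47 under the 16 alternatives run for it. Its groups of arrays do not overlap, so leaving out arrays could not turn the sign, and the sign adds no support.

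MT-TH (ENSG00000210176_at) encodes the histidine tRNA. Its probe set was the brightest of the 7, with only 5 of all probe sets above it. Its log2 levels were 12.18, 12.21 and 12.23 without and 12.23, 12.23 and 12.11 with doxycycline, where experiment 3 alone was lower with the drug. The log2 fold change was -0.02 (95% interval -0.21 to 0.18, adjusted p = 0.95, limma). MT-TL2 (ENSG00000210191_at), the gene for the leucine tRNA that reads CUN codons, had log2 levels of 11.29, 11.44 and 11.41 without and 11.37, 11.24 and 11.42 with doxycycline. Experiment 2 was its highest uninduced and its lowest doxycycline array, and the log2 fold change was -0.04 (95% interval -0.27 to 0.20, adjusted p = 0.90, limma).

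MT-TP (ENSG00000210196_at), the gene for the proline tRNA and the only light-strand gene measured, had the widest interval of the 7. Its log2 levels were 11.56, 11.68 and 11.65 in uninduced cells and 11.68, 11.50 and 11.30 with doxycycline. The level was higher with doxycycline in experiment 1, by 0.12, and lower in experiments 2 and 3, by 0.18 and 0.35. The SD of the 3 differences was 0.24, against a median of 0.14 over all probe sets. That median was 0.10 in the brightest 25% of probe sets and 0.076 at and above the level of MT-RNR1, where MT-TP lies. The log2 fold change was -0.14, with a 95% interval from -0.45 to 0.18 and an adjusted p of 0.68 (limma), and levels from 73.0% to 113.3% of the uninduced one lay within the interval. With 1 light-strand gene, the strands were not compared.

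**Figure D2:**
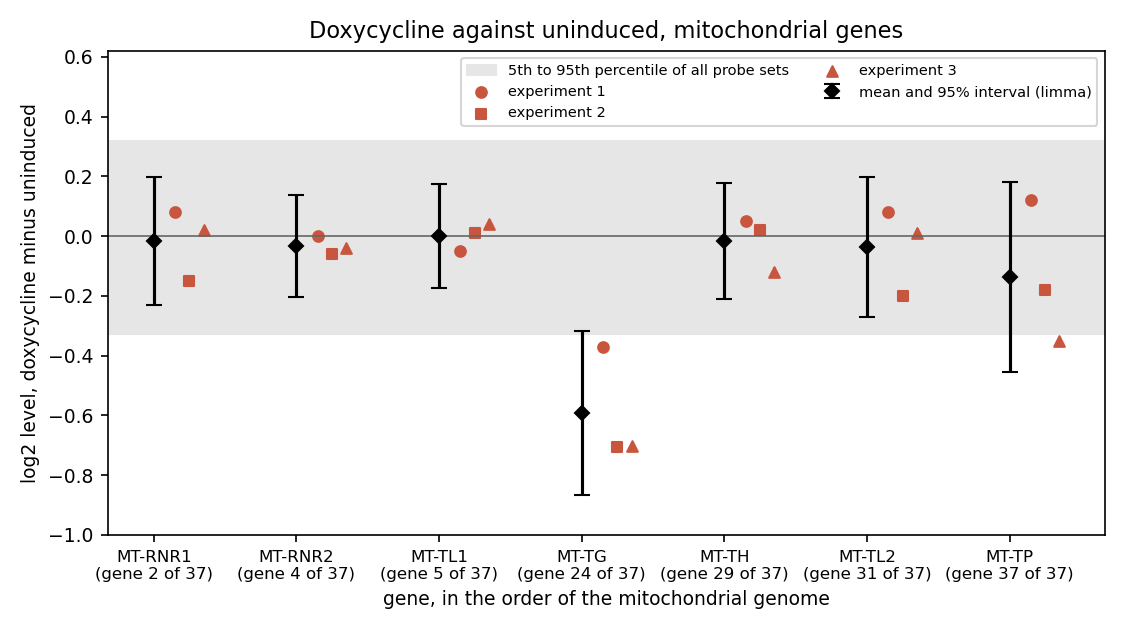
Difference in log2 level between doxycycline and uninduced cells for the 7 genes, in their order along the mitochondrial genome. Black diamonds and bars are limma means with 95% intervals, red symbols are the 3 experiments and the grey band spans the 5th to the 95th percentile of the log2 fold changes of all probe sets (-0.33 to 0.32). Of the 7 genes, only MT-TG has a mean outside the band and an interval that does not reach 0.

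The experiments differed in how the other 6 genes moved. In experiment 1, 4 of them were higher with doxycycline, 1 was lower and 1 was equal. In experiment 2, 2 were higher and 4 lower, and in experiment 3, 3 were higher and 3 lower. Their median difference was 0.065, -0.105 and -0.015 in experiments 1, 2 and 3. MT-RNR1, MT-TL2 and MT-TP all had a positive difference in experiment 1 and a negative one in experiment 2, while MT-TL1 had the opposite signs. None of these 6 genes was changed in the same direction in all 3 experiments, which 36.5% of all probe sets were.

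The levels of MT-TG were also set against those of the other 6 genes within each array, a comparison made after its values had been seen and therefore given without a test. Relative to the mean log2 level of the other 6, MT-TG stood at -2.14, -1.99 and -1.72 in uninduced cells and at -2.56, -2.61 and -2.35 with doxycycline. The groups did not overlap on this scale, which follows from the levels of MT-TG above, because the mean of the other 6 genes moved little, and adds no support to them. The shift was -0.42, -0.61 and -0.63 in experiments 1, 2 and 3, while the mean of the other 6 genes differed by only 0.05, -0.09 and -0.07. Different probes respond differently, so the distance between MT-TG and the other genes does not state a ratio of their RNAs.

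**Figure D3:**
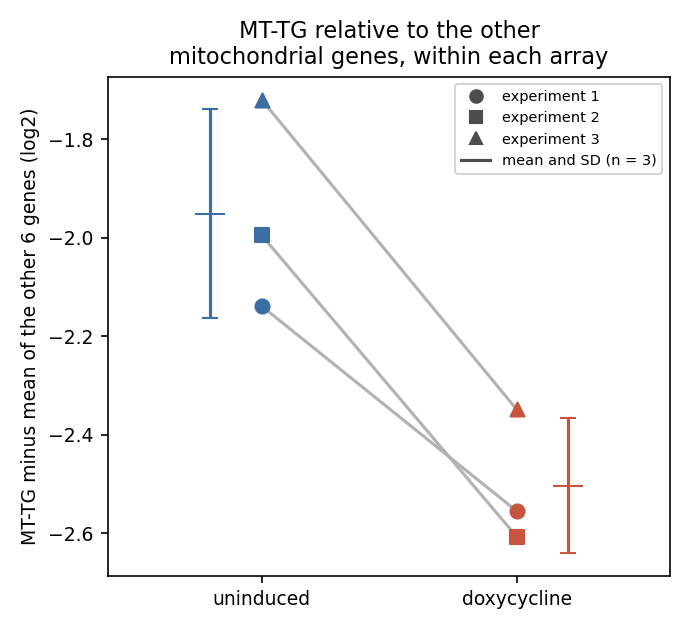
Log2 level of MT-TG minus the mean log2 level of the other 6 mitochondrial genes on the same array, with lines joining the arrays of an experiment and bars for the mean and SD of 3 arrays. The uninduced arrays lie between -2.14 and -1.72 and the doxycycline arrays between -2.61 and -2.35.

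All 7 probe sets were bright. The mean level of MT-TG was above that of 95.4% of the probe sets, and those of the other 6 were above 99.4% to 99.98%. At and above the level of MT-RNR1, the dimmest of these 6, 155 probe sets had log2 fold changes between -0.32 and 0.43, and 9 of them, or 5.81%, passed the limits of the study. In the brightest 25% of probe sets, where all 7 genes lie, 651 of 6612 passed them, or 9.85%. Differences of at least 1.2-fold were thus recorded for some genes at or above the level of MT-RNR1. MT-RNR2 had only 15 probe sets above it and MT-TH only 5, and no share was computed at their levels. Whether the brightest probe sets understate a change was not tested.

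**Figure D4:**
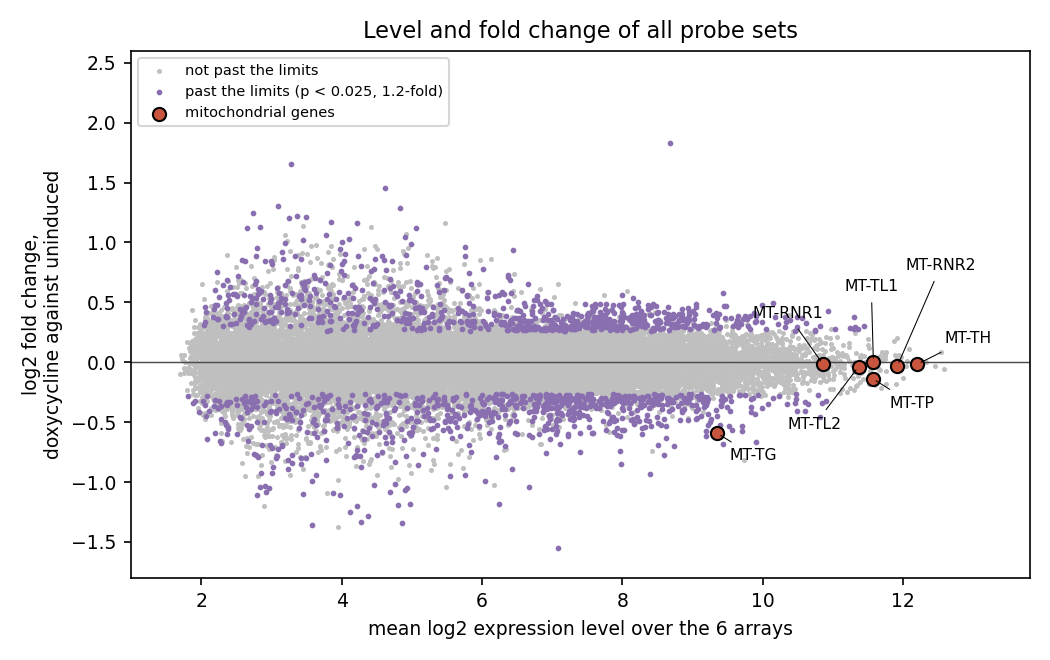
Mean log2 level over the 6 arrays (horizontal axis) and log2 fold change of doxycycline against uninduced cells (vertical axis) for all 26445 probe sets, with those past the limits in purple and the 7 mitochondrial genes in red. The other mitochondrial genes sit near 0 at the bright end, to the right of MT-TG, which lies at -0.59.

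The values cannot separate a free tRNA from the same sequence in an unprocessed transcript, and RNA was extracted with RNeasy columns, which retain little RNA of the length of a tRNA. The RNAs behind the 5 tRNA values were not identified, and no level of the COX3 and ND3 mRNAs that flank MT-TG was analysed here. Since RNA came from whole cultures, fewer cells with a transcript and less of it in each cell cannot be told apart. The nuclear genome holds many copies of mitochondrial sequence, and the share of signal from such copies was not tested for any of the 7 genes.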

How the data were processed

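Gene expression was measured in 3 doxycycline and 3 uninduced samples, grouped by their titles, and the replicate number was taken as the experiment because the methods describe 3 independent experiments and a paired test. The authors deposited log2 expression levels, 1 per array and probe set, named by Ensembl gene identifiers. Per the labels they were made by RMA, which corrects background, normalizes by quantiles and summarizes probes. The annotation version is not given in the sources used here. No detection calls were used, and 3 arrays per group set the precision.

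All 26445 probe sets were fitted with lmFit and eBayes (limma 3.58.1, R 4.3.3; two-sided) with a term for the experiment. Adjusted p-values are Benjamini-Hochberg values over the whole table. Percentages of the uninduced level are back-transformed log2 fold changes. Exact permutation tests were run over the arrays. Exact sign-flip tests, which reverse the signs of the differences in every combination, were run over the differences within experiments. The limma p-values with the block rest on the spread of the differences between these experiments, moderated towards that of all probe sets. The methods' t-test uses only each gene's own differences. Fits without the block and the permutation tests rest on the spread between arrays.

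The genes and lists were chosen with earlier results of these data known. By the rule for named genes, both rRNAs and, of the tRNAs, those called, those with the extreme changes and those with the extreme levels were named, and MT-TL2 was added so that all 7 genes have their values. Planned lists of nuclear genes for mitochondrial gene expression and respiratory chain subunits, and markers of cell types, were not analysed here, because no table paired the identifiers with symbols (0 pairs). The alternatives left out the block, used the methods' t-test, changed the variance prior, dropped the dimmest 25% of probe sets, centred each array, removed the trend of the differences on the level (lowess, span 0.3), left out each experiment or array, and changed the fold change minimum.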

Additional observations from a re-analysis of the deposited data

How the results depend on the processing

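The count of members past the limits of the study, 1 of 7, was 1 in 16 of 18 alternatives, among them the fit with no replicate block (1), and 0 with the methods' t-test and without experiment 3. Of all 26445 probe sets, 1543 passed in the main fit, 577 with the methods' t-test and 986 without experiment 3. Not all of the 18 could lower the count. Centring repeated the main fit, because all arrays already had the same median, and dropping the fold change minimum cannot remove a call. With experiments or arrays left out in turn the count was 0 to 1, where fewer arrays enter the fit, and the cause was not tested further. In these fits 696 to 1361 of the 26445 probe sets passed. At an adjusted p of 0.05 the count of members was 0 in all 16 alternatives, in which the adjusted p of MT-TG lay between 0.16 (variance prior that depends on the level) and 0.85. In none of them did any other probe set pass. Small estimates had no settled sign: with experiments or arrays left out, the log2 fold change ran from -0.065 to 0.067 for MT-RNR1, from -0.073 to 0.02 for MT-RNR2, from -0.05 to 0.035 for MT-TH and from -0.095 to 0.045 for MT-TL2. MT-TP stayed below 0, between -0.265 and -0.03, and was not called. The medians over the rRNAs, the tRNAs and all probe sets moved by less than their SD between experiments in their 13 alternatives. The rRNA median, -0.025, nevertheless ran from -0.059 to 0.043 and was above 0 in 3 of them, and the tRNA median, -0.037, ran from -0.095 to -0.015. Leaving out the block, the other priors, the t-test, the centring and dropping the dimmest probe sets left each gene's fold change as it was. Those of them that are among the 13 therefore could not move the rRNA and tRNA medians. No median was computed for mRNAs, which were not analysed here.

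Deviations from the group means correlated, over all probe sets, with an r of 0.039, 0.049 and 0.13 between arrays of the same number and of -0.092 to 0.044 between arrays of different numbers, so whether the numbers pair the arrays is not settled by these values. The limma p of MT-TG was 0.0039 with the block and 0.0053 with no replicate block, where 3.97% of all probe sets were called.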
